A study of Rattus norvegicus with 9 samples.

Results

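Acetylcholine acts on 2 kinds of receptor, and the genes of both were followed here in the rat brain after ischemia/reperfusion (I/R) and after I/R with Danhong injection (DHI). The members are 10 genes, chosen by their symbol in the array files, out of 19293 different gene symbols on the array. There were 4 nicotinic alpha subunits (Chrna3, Chrna4, Chrna5, Chrna7), 3 nicotinic beta subunits (Chrnb2, Chrnb3, Chrnb4) and 3 muscarinic receptors (Chrm1, Chrm2, Chrm3). They had 12 probes, since Chrna7 and Chrm2 had 2 each, and the probe with the highest mean signal over the 9 arrays represents its gene.

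Nicotinic receptors are cation channels made of several subunits around a pore, and their subunit make-up sets which agonists open them and how much calcium they pass. Muscarinic receptors are single proteins that signal through G proteins, M1 and M3 through Gq and phospholipase C, and M2 through Gi/o, which lowers cyclic AMP and opens potassium channels. In the forebrain both kinds receive acetylcholine from basal forebrain and striatal neurons, and in macrophages the alpha7 receptor is known for damping cytokine release.

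Gene expression was measured on 9 one-colour Agilent arrays, with 3 Sham, 3 I/R and 3 DHI male Sprague Dawley rats, using total RNA that was taken on day 14 from the infarcted hemisphere. A filament closed the middle cerebral artery for 2 h before reperfusion in the rats of both I/R and DHI, and Sham rats had the operation without a filament. DHI, an injection prepared from the herbs Danshen and Honghua, was given to the DHI rats by tail vein each day until day 14, and the Sham rats received its solvent. The comparisons ask which receptor genes differ after I/R (I/R versus Sham) and which differ with DHI, either from I/R or from Sham. The age of the rats is not given in the sources used here.

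Values are log2 signals minus each array's 75th percentile (relative log2 signal), so that 0 is that percentile. Levels of different probes are not set against each other, because probes differ in how well they bind. A gene was called lower or higher in limma at an unadjusted p under 0.05 with a fold change (FC) over 1.5, the thresholds of the study, and the Benjamini-Hochberg adjusted p over all 23747 probes tested is given beside it. A probe was tested where at least 1 group had it well above background on all 3 of its arrays. All 10 genes were among the probes tested, and 8 of them were well above background on all 9 arrays. Chrna3 was tested only through Sham and Chrnb3 only through I/R, the group where each was highest. Calls of either gene against that group are therefore not independent of the filter. The Sham and I/R arrays lay on 1 slide and the DHI arrays on another, so DHI and slide cannot be told apart. Array DHI 1 stood apart from the other DHI arrays, with a correlation over all probes tested as low as 0.917 within the group, against at least 0.959 in I/R and 0.988 in Sham. The labels do not say how the 3 samples of a group were kept apart, so p-values measure the spread between these samples. The RNA comes from a whole hemisphere, in which fewer cells of a type and less RNA per cell cannot be told apart.

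The probes that the results turn on are shown first. They are 60 bases long and are printed 5′ to 3′ on the strand of the transcript, at the positions that the array files give on rat build rn4. The Chrna3 probe lies at chr8:58572596-58572655 (minus strand) and the Chrna4 probe at chr3:170171576-170174943 (minus strand), a span of 3368 bases that exceeds the probe's own length. Capitals mark the longest run that these 2 share, 10 bases, which is also the longest run shared by any of the 66 pairs of the members' probes. The Chrnb4 probe lies at chr8:58586979-58587038 (minus strand).
Chrna3: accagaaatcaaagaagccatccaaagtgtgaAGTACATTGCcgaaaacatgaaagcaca
Chrna4: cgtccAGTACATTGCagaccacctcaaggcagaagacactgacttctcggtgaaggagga
Chrnb4: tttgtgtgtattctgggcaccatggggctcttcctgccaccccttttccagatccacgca
The brighter Chrna7 probe lies at chr1:117587580-117587639 (minus strand), and capitals mark the stop codon on which it ends. The brighter Chrm2 probe lies at chr4:63916605-63916664 and the dimmer one at chr4:63915250-63915309 (both plus strand), 1296 bases apart, and in the dimmer probe capitals mark an ATG from which the frame runs open to the probe's end.
Chrna7, brighter probe: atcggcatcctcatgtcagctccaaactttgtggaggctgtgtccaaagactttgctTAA
Chrm2, brighter probe: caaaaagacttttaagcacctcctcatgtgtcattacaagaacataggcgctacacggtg
Chrm2, dimmer probe: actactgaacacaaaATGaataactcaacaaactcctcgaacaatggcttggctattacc
The other probes are given by position only. They lie at chr8:58566044-58566103 for Chrna5, chr2:181961457-181961516 for Chrnb2, chr16:69029099-69029158 for Chrnb3, chr1:211352865-211352924 for Chrm1, chr17:71218386-71218445 for Chrm3 and chr1:117640777-117640836 for the dimmer Chrna7 probe. Exon annotation of rn4 was not used here.

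After I/R, 8 of the 10 genes were lower than in Sham and 0 were higher: Chrna3, Chrna4, Chrna5, Chrna7, Chrnb2, Chrm1, Chrm2 and Chrm3. The fall ranged from 2.30-fold for Chrm1 to 6.33-fold for Chrm3 among the 7 of these genes whose probes were well above background on all 9 arrays. Chrnb3 and Chrnb4 were not called. Of all probes tested, 22.3% were called lower and 20.8% higher in this comparison. Chrna3, Chrna4, Chrm2 and Chrm3 also passed the adjusted p, as did 15.1% of all probes in the lower direction. The median log2 fold change was -1.63 over the 10 genes and -0.10 over all probes tested. For 7 of the 10 genes every I/R array was below every Sham array, where 35.8% of all probes tested did not overlap in that direction. The calls were fewer without single arrays, 4 without I/R 1 or I/R 2 (Chrna3, Chrna4, Chrm2 and Chrm3 in both) and 5 without Sham 2. Of all probes, 7517, 7971 and 8173 were called in these settings, against 10241 with all arrays. Without DHI 1 the same 8 were called lower and Chrnb3 was called higher. The adjusted p was less stable, since 0 genes passed it without any 1 of the Sham arrays, I/R 1, I/R 2 or DHI 3, where at most 1 probe of the whole array passed, while 7 passed without I/R 3 and 8 without DHI 1, settings in which 10135 and 10266 of the 23747 probes passed, against 7471 with all arrays.

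**Figure D1:**
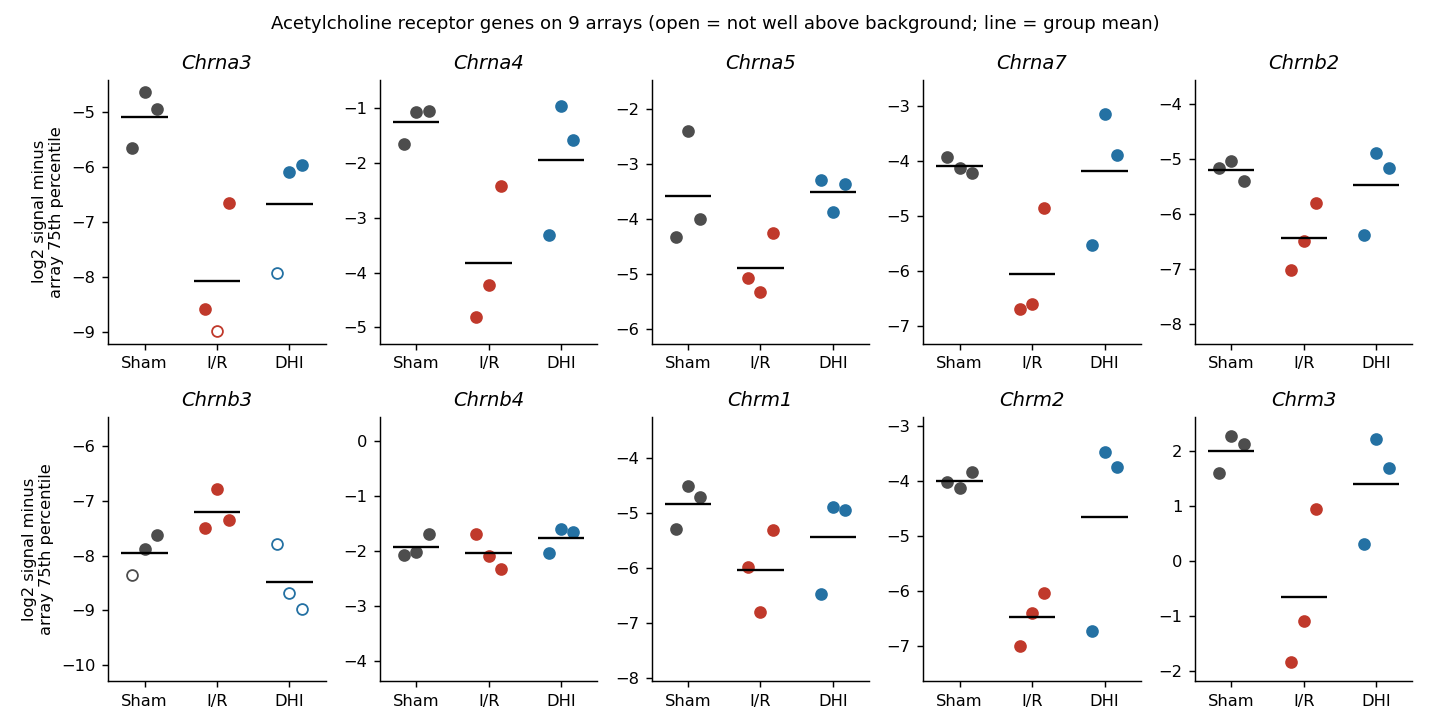
Relative log2 signal of the 10 receptor genes on each of the 9 arrays (y axis, log2 units, every panel spanning the same number of units), by group on the x axis, with a line at the group mean of 3 arrays and open points where the probe was not well above background. In the panels of Chrna3, Chrna4, Chrna7, Chrnb2, Chrm1, Chrm2 and Chrm3 the I/R points lie below all Sham points, and in most of these panels 1 DHI point (DHI 1) lies near the I/R points.

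The genes of the main high-affinity nicotinic receptor of the brain, Chrna4 (alpha4) and Chrnb2 (beta2), both fell after I/R. The relative log2 signal of Chrna4 was -1.66, -1.08 and -1.06 in Sham 1 to 3, -4.81, -4.22 and -2.42 in I/R 1 to 3, and -3.32, -0.97 and -1.59 in DHI 1 to 3. All I/R values were below the Sham values, and only DHI 1 of the DHI arrays fell within the I/R range. The log2 fold change was -2.55 ± 0.73 (SE; adjusted p = 0.0408, limma) in I/R versus Sham and 1.86 ± 0.73 (unadjusted p = 0.0352, adjusted p = 0.196, limma) in DHI versus I/R, a rise of 3.62-fold.

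For Chrnb2, whose protein forms the agonist site with alpha4, the values were -5.16, -5.04 and -5.41 in Sham, -7.03, -6.49 and -5.80 in I/R, and -6.38, -4.90 and -5.17 with DHI. Sham and I/R did not overlap, and DHI 1 again lay among the I/R arrays. Chrnb2 fell 2.36-fold in I/R versus Sham (log2 fold change -1.24 ± 0.43, adjusted p = 0.0574, limma). The call was lost with normexp background correction (-0.57) and without Sham 1, Sham 2, I/R 1 or I/R 2. In DHI versus I/R the log2 fold change was 0.96 ± 0.43 with a 95% interval from -0.04 to 1.95, and the call was not made.

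Chrna7 encodes the subunit of the homomeric alpha7 receptor, which passes much calcium and is found on neurons and on immune cells. Its brighter probe, the one ending on the stop codon above, gave -3.93, -4.12 and -4.20 in Sham, -6.69, -6.60 and -4.85 in I/R, and -5.52, -3.14 and -3.89 with DHI. I/R lay wholly below Sham, while DHI ranged from within I/R to above Sham. It fell 3.89-fold after I/R (log2 fold change -1.96 ± 0.67, adjusted p = 0.0536, limma) and was 3.63-fold higher in DHI than in I/R (unadjusted p = 0.0233, adjusted p = 0.196, limma). With normexp the log2 fold changes were -1.09 and 1.16, and the fall was not called without I/R 1 or I/R 2.

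The dimmer Chrna7 probe, 53138 bases away on the same strand and designed on another transcript record, was not called in I/R versus Sham. It gave -5.29, -5.75 and -5.71 in Sham, -5.96, -5.44 and -6.18 in I/R, and -5.57, -4.91 and -4.85 with DHI. Its log2 fold change in I/R versus Sham was -0.28 with a 95% interval from -0.91 to 0.36, and it was called higher in DHI versus I/R by 1.68-fold. Within each array the brighter minus the dimmer probe was 1.36 to 1.63 in Sham and -1.16 to 1.33 in I/R, a difference of -1.68 between the means (n = 3 each; exact permutation test, two-sided p = 0.1, the smallest that 3 against 3 arrays allow; adjusted p = 0.3 over the 15 within-array comparisons made). The groups separated only narrowly in this difference (1.33 in I/R 3, 1.36 in Sham 1), and the low values were those of I/R 1 (-0.73) and I/R 2 (-1.16). The test therefore cannot decide whether the 2 probes of Chrna7 differ in the size of the fall. The average of both probes was still called lower.

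Chrna3, Chrna5 and Chrnb4 encode the subunits of ganglionic-type receptors and lie side by side in 1 gene cluster on chromosome 8. On rn4 the Chrna5 probe (plus strand) and the Chrna3 probe (minus strand) are 6493 bases apart, and the Chrnb4 probe (minus strand) follows after another 14324 bases. Because Chrna3 and Chrna5 were called lower after I/R and their neighbour Chrnb4 was not, the 250 bases before the start of each gene are shown from RefSeq (GRCr8), 5′ to 3′ on the strand of the gene. Capitals mark GC boxes, searched as GGGCGG on both strands (CCGCCC on the other). The windows are chr8:64265629-64265878 (plus) for Chrna5, chr8:64311252-64311501 (minus) for Chrna3 and chr8:64333110-64333359 (minus) for Chrnb4.
Chrna5: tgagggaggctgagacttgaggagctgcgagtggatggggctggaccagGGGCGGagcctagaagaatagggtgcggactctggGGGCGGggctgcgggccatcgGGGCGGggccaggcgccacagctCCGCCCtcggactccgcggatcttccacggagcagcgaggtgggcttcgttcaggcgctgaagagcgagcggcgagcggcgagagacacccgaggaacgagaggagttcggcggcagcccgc
Chrna3: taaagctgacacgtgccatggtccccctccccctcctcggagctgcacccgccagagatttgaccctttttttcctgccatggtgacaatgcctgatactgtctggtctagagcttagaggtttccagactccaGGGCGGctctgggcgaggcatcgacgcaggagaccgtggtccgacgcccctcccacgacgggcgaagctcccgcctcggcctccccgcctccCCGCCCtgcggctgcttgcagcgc
Chrnb4: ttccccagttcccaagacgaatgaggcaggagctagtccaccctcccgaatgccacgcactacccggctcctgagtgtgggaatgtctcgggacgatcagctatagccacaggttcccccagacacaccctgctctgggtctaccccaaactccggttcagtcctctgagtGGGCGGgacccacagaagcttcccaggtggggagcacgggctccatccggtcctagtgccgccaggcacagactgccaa
The Chrna5 window holds 4 such boxes, the Chrna3 window 2 and the Chrnb4 window 1. At least 1 box was found in 8 of the 9 members' windows in the table (Chrm1 had none, and Chrnb3 had no entry), and in 30.5% of all 33469 windows of this length. The members' windows ranged from 58.8% to 74.4% G and C, with a median of 51.2% over all windows. These matches describe the letters only.

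Chrna3, an agonist-binding subunit, fell after I/R. It gave -5.65, -4.64 and -4.94 in Sham, -8.59, -8.98 and -6.66 in I/R, and -7.93, -6.09 and -5.97 with DHI. The signal was not well above background on 1 I/R array (I/R 2) and 1 DHI array (DHI 1), so the lowest values are close to what the array can measure. The Chrna3 probe was tested only through Sham, its highest group, so its fall is not independent of the filter. Chrna3 fell 7.99-fold in I/R versus Sham (95% interval of the log2 fold change -4.65 to -1.34, SE 0.72, adjusted p = 0.0396, limma), and with normexp background correction the log2 fold change was -0.999, smaller in size than those of Chrm3, Chrna4, Chrm2 and Chrna7 in the same setting. DHI exceeded I/R by 1.41 (95% interval -0.24 to 3.07), which was not called, and all 3 DHI arrays were still below all Sham arrays (log2 fold change -1.58, 95% interval -3.24 to 0.07).

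Chrna5, an accessory subunit that joins alpha3 or alpha4 receptors and raises their calcium passage, gave -4.33, -2.39 and -3.99 in Sham, -5.06, -5.33 and -4.25 in I/R, and -3.29, -3.87 and -3.35 with DHI. Sham and I/R overlapped, and Sham 2 was far above the other Sham arrays. All DHI values were above all I/R values, the only gene of the 10 with this pattern, where 5.52% of all probes tested did not overlap in that direction. Chrna5 fell 2.48-fold in I/R versus Sham (log2 fold change -1.31 ± 0.51, adjusted p = 0.0758, limma), a call lost in 7 of the 19 other settings (no scaling, the replicate block, the methods' t-test, only the 2 groups compared, and without Sham 2, I/R 1 or I/R 2). It rose 2.59-fold in DHI versus I/R (1.37 ± 0.51, unadjusted p = 0.0278, adjusted p = 0.196, limma).

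Chrnb4, the beta subunit of the cluster, gave -2.07, -2.01 and -1.68 in Sham, -1.69, -2.09 and -2.31 in I/R, and -2.03, -1.60 and -1.65 with DHI. The 3 groups overlapped. The log2 fold change in I/R versus Sham was -0.11 with a 95% interval from -0.61 to 0.39, and it was slightly above 0 without scaling (0.09), without Sham 3 (0.01) and without I/R 3 (0.03). In DHI versus I/R it was 0.27 (95% interval -0.23 to 0.77).

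Differences between 2 probes of 1 array do not depend on scaling between arrays. Chrna3 minus Chrnb4 was -3.16 ± 0.49 in Sham, -6.05 ± 1.47 in I/R and -4.90 ± 0.87 with DHI (mean ± SD, n = 3 each), where the Chrna3 probe was not well above background on I/R 2 and DHI 1, so that the size of the difference on those arrays is uncertain. I/R and DHI lay below Sham without overlap, by -2.89 and -1.74 (exact permutation test, two-sided p = 0.1 and adjusted p = 0.3 for each). Chrna5 minus Chrnb4 was -2.32 to -0.38 in Sham and -3.37 to -1.93 in I/R, and these overlapped (exact permutation test, p = 0.3). Within this cluster the Chrna3 probe stood lower against Chrnb4 on each I/R array than on any Sham array. It was tested only through Sham, its highest group, so this separation is not independent of the filter. With 3 arrays a group the exact p cannot fall under 0.1, so the test cannot decide whether the 2 genes differ. The share of other probe pairs that separate in this way was not computed. For Chrna5 the shift against Chrnb4 was within the spread of the arrays.

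**Figure D2:**
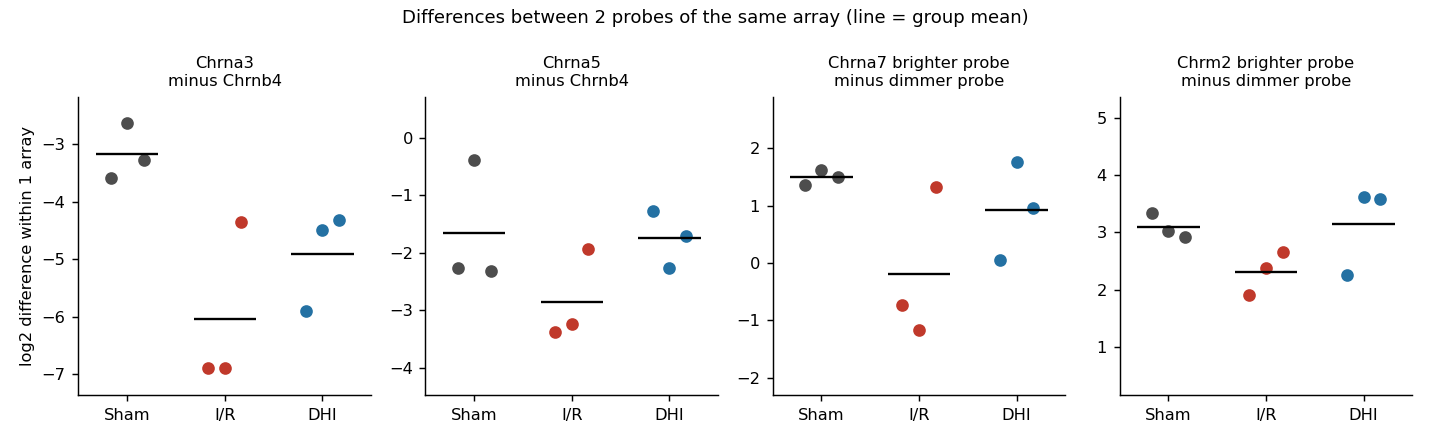
Log2 difference between 2 probes of the same array (y axis, log2 units, every panel spanning the same number of units) by group, with 1 point per array and a line at the mean of 3. Chrna3 minus Chrnb4 and the brighter minus the dimmer probe of Chrna7 are lower on all I/R arrays than on all Sham arrays, narrowly so for Chrna7, while Chrna5 minus Chrnb4 overlaps. The Chrna3 probe was tested only through Sham, so its separation is not independent of the filter. The I/R points of Chrm2 are not read as a difference, since its dimmer probe was well above background on 0 I/R arrays.

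Chrnb3, an accessory subunit of midbrain and habenular receptors whose gene lies beside Chrna6, did not fall after I/R. It gave -8.36, -7.88 and -7.63 in Sham, -7.50, -6.79 and -7.35 in I/R, and -7.80, -8.68 and -8.97 with DHI. The signal was well above background on 2 Sham, 3 I/R and 0 DHI arrays. The probe was thus tested only through I/R, its highest group, and a call in a comparison with I/R is not independent of that. In I/R it was 0.74 log2 units above Sham (95% interval -0.07 to 1.55), without overlap and not called. With normexp background correction this shrank to 0.10. It was called higher with only the 2 groups compared and without DHI 1. It was called lower in DHI versus I/R (log2 fold change -1.27 ± 0.35, unadjusted p = 0.00671, adjusted p = 0.196, limma), a direction that turned with normexp background correction (0.24). Since no DHI array measured it, only a bound from the group means can be given, with I/R at least 1.81-fold higher than DHI. This bound makes no allowance for the spread of the arrays, and it does not hold with normexp, where the direction turned.

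Chrm3 (M3) and Chrm1 (M1), muscarinic receptors that couple to Gq, fell after I/R. Chrm3 gave 1.61, 2.28 and 2.14 in Sham, -1.83, -1.09 and 0.95 in I/R, and 0.32, 2.22 and 1.70 with DHI. All I/R arrays were below all Sham arrays, and DHI 2 and DHI 3 were within the Sham range. Chrm3 fell 6.33-fold in I/R versus Sham (log2 fold change -2.66 ± 0.74, adjusted p = 0.0405, limma). It rose 4.19-fold in DHI versus I/R (2.07 ± 0.74, unadjusted p = 0.0229, adjusted p = 0.196, limma).

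Chrm1, the main muscarinic receptor of cortex and hippocampus, gave -5.28, -4.49 and -4.70 in Sham, -5.97, -6.80 and -5.30 in I/R, and -6.46, -4.88 and -4.94 with DHI. Its Sham and I/R values nearly met. The fall of 2.30-fold passed the threshold narrowly (log2 fold change -1.20 ± 0.52, unadjusted p = 0.0499, adjusted p = 0.0984, limma) and was lost in 9 of the 19 other settings, normexp (-0.64) among them. With DHI the log2 fold change from I/R was 0.60 (95% interval -0.60 to 1.80).

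Chrm2 (M2), the Gi/o-coupled receptor that restrains acetylcholine release from nerve endings, gave -4.03, -4.12 and -3.84 in Sham by its brighter probe, -7.01, -6.41 and -6.04 in I/R, and -6.73, -3.48 and -3.75 with DHI. DHI 1 was within the I/R range and the other DHI arrays were above all Sham arrays. Chrm2 fell 5.62-fold in I/R versus Sham (log2 fold change -2.49 ± 0.78, adjusted p = 0.0448, limma) and rose 3.57-fold in DHI versus I/R (1.83 ± 0.78, unadjusted p = 0.0457, adjusted p = 0.196, limma). With normexp the log2 fold changes were -1.34 and 1.19. The call in DHI versus I/R was lost without any 1 of the Sham or I/R arrays, DHI 2 or DHI 3.

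The dimmer Chrm2 probe, the one with the ATG above, was well above background on 3 Sham, 0 I/R and 1 DHI arrays. It gave -7.36, -7.14 and -6.77 in Sham, -8.92, -8.78 and -8.69 in I/R, and -8.98, -7.09 and -7.32 with DHI. By the group means, without allowance for their spread, Sham was at least 2.75-fold higher than I/R by this probe. The adjusted p of 0.0400 (limma) belongs to the measured log2 fold change of -1.71, which uses I/R values not well above background. This probe was tested only through Sham, its highest group, so it adds no independent support to the fall of the brighter probe.

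With DHI, 5 of the 10 genes were higher than in I/R (Chrna4, Chrna5, Chrna7, Chrm2 and Chrm3) and 1 was lower (Chrnb3), where 11.5% of all probes tested were called higher and 10.5% lower. The Chrnb3 probe was tested only through I/R, so its call is not independent support. By the adjusted p 0 of the 10 passed in limma, as against 6 at an unadjusted p under 0.05 and 2 by the methods' t-test (Chrna5 and Chrnb3), and only 0.00421% of all probes (1 probe) passed. Over the 10 genes the median log2 fold change was 1.39, and over all probes 0.10. In DHI versus Sham 0 of the 10 were called by limma or by the methods' t-test (3.58% of all probes were called by limma in either direction), and the log2 fold changes ranged from -1.58 for Chrna3 to 0.16 for Chrnb4. The 95% intervals of that comparison were wide, for example -2.39 to 1.00 for Chrna4 and -1.63 to 1.44 for Chrna7.

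The DHI calls rested on how the arrays of each group were spread. DHI 1 was the lowest of the DHI arrays for 8 of the 10 genes and the one nearest to the I/R mean for 9. I/R 3 was the highest of the I/R arrays for all 8 genes that fell. Without DHI 1, 8 genes were called in DHI versus I/R and 7 passed the adjusted p (Chrna3, Chrna4, Chrna7, Chrnb2, Chrnb3, Chrm2 and Chrm3), while Chrna5 was not called. In that setting 10737 of all 23747 probes were called and 9527 passed the adjusted p, against 5211 and 1 with all arrays. Without DHI 2, 2 genes were called (Chrna5 and Chrnb3), and without I/R 1, I/R 2 or DHI 3 only Chrnb3 was. Of all probes, 939 were called without DHI 2, and 1381, 1659 and 1127 without I/R 1, I/R 2 and DHI 3. Without scaling between arrays, too, only Chrnb3 of the 10 genes was called, while 7436 of all probes were, against 5211 with scaling.

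**Figure D3:**
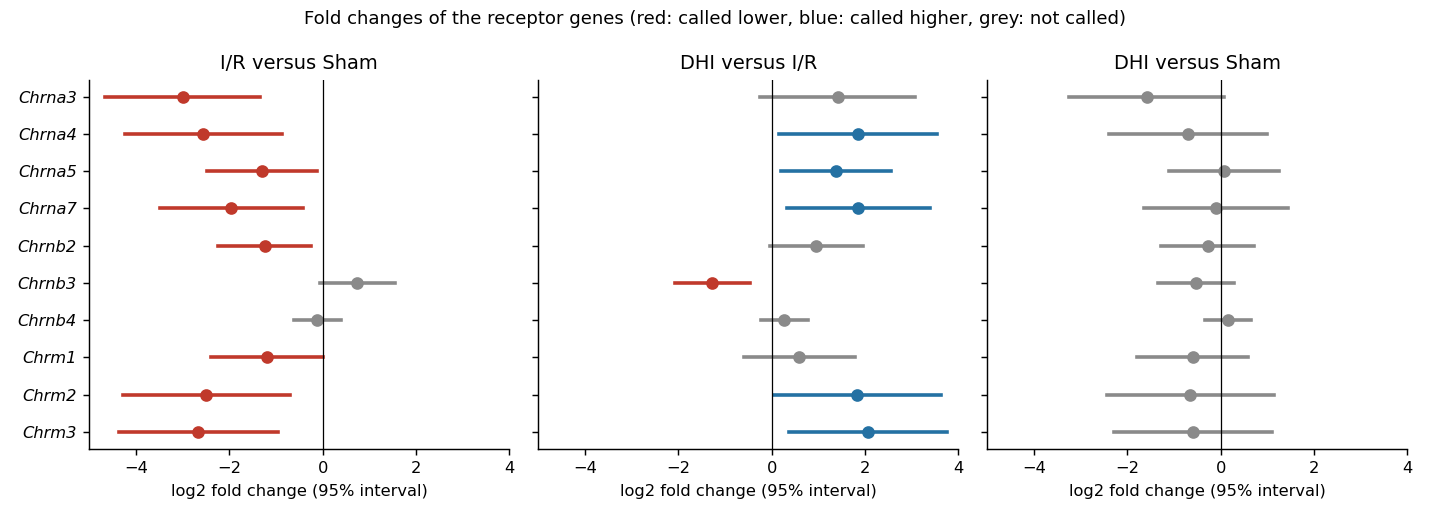
Log2 fold change (x axis) of the 10 receptor genes in the 3 comparisons, with points at the limma estimate and lines for the 95% interval, red where called lower, blue where called higher and grey where not called. In I/R versus Sham 8 genes lie left of 0 and are called, in DHI versus I/R 5 lie right of 0 and are called, and in DHI versus Sham 0 are called.

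Of the 11 other receptor genes on the array, 5 could be tested. Chrm4 (M4), a muscarinic receptor found on striatal neurons, fell with the members (log2 fold change -2.65 ± 0.77, adjusted p = 0.0413, limma). It gave 1.43, 1.27 and 0.80 in Sham, -2.68, -1.72 and -0.06 in I/R, and -1.34, 1.02 and 0.69 with DHI. The muscle-type subunits Chrna1 and Chrnb1 were higher in I/R than in Sham, by 2.31-fold and 2.15-fold (adjusted p = 0.0417 and 0.0396, limma). Chrna1 gave -2.72, -3.22 and -3.33 in Sham, -1.70, -1.31 and -2.64 in I/R, and -2.27, -2.84 and -2.71 with DHI, and Sham and I/R did not overlap. Chrne and Chrng, also muscle-type, were not called, with log2 fold changes of -0.75 and 0.09. Chrna2, Chrna6, Chrna9, Chrna10, Chrnd and Chrm5 were too dim to test. Chrna6, the partner of Chrnb3 in dopamine neurons, was well above background on 1 array only, at -5.19 in Sham 3, against -9.85 to -9.23 on the other 8. Markers of midbrain dopamine neurons stood out on the same array, with Th, the enzyme that makes their transmitter precursor, at 2.30 in Sham 3 against -1.13 to -0.38 elsewhere, while Chrnb3 was -7.63 in Sham 3 and -7.88 in Sham 2. The part of midbrain tissue in these values was not tested.

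Of 8 genes for making, moving and breaking down acetylcholine, 2 fell after I/R and 0 rose, with a median log2 fold change of -0.40. Of all probes tested, 22.3% were called lower and 20.8% higher, so the number that fell is close to the share over all probes. Ache, the enzyme that splits acetylcholine, fell 4.25-fold (log2 fold change -2.09 ± 0.60, adjusted p = 0.0409, limma), from -0.65, -1.48 and -0.45 in Sham to -4.13, -2.77 and -1.94 in I/R. Slc18a3, the vesicular acetylcholine transporter, fell 2.20-fold (-1.14 ± 0.26, adjusted p = 0.0396, limma). Chat, which makes acetylcholine, had a log2 fold change of -0.52 (95% interval -1.72 to 0.68), and Slc5a7, the choline transporter of cholinergic endings, one of -0.77 (95% interval -2.92 to 1.39). Both varied widely within Sham, where Sham 1 was highest (Slc5a7 at -1.85 against -4.93 and -4.35, Chat at -5.19 against -6.60 and -6.76). Markers of striatal neurons, which share their tissue with cholinergic interneurons, moved with this, and the mean relative log2 signal of the 9 tested (Drd2, Adora2a and Ppp1r1b among them) was 1.79 in Sham 1 and 1.73 in DHI 3, against -2.42 to -0.45 on the other 7 arrays. The part of striatal tissue in the Chat and Slc5a7 values was not tested. Bche, Prima1, Colq and Slc44a1 were not called. In DHI versus I/R 0 of the 8 were called by limma, with 0 at an unadjusted p under 0.05. Of all probes tested, 11.5% were called higher and 10.5% lower in that comparison.

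Genes of proteins that help receptors assemble or bind to them fell in RNA with the receptor genes. Of 7 chaperones and Ly6-type modulators tested, all 7 were called lower in I/R versus Sham by their representative probes, 4 with the adjusted p. Their median log2 fold change was -1.69. Of all probes tested, 22.3% were called lower, and 15.1% passed the adjusted p in that direction. Lynx1, a membrane-anchored brake on nicotinic receptors, fell 8.21-fold (-3.04 ± 0.73, adjusted p = 0.0396, limma) and was 4.83-fold higher in DHI than in I/R (unadjusted p = 0.0147, adjusted p = 0.196, limma). Ric3, a chaperone needed for alpha7 receptors, fell 4.21-fold (-2.08 ± 0.60, adjusted p = 0.0408, limma) and was called higher in DHI versus I/R by 2.93-fold. Tmem35, which helps alpha7 and other receptors fold, gave 1.98, 1.99 and 1.98 in Sham, -0.99, 0.19 and 1.67 in I/R, and 0.88, 1.84 and 1.77 with DHI, a fall of 3.24-fold (adjusted p = 0.0588, limma). Lypd6b (4.53-fold), Lypd1 (2.97-fold), Ly6h (2.86-fold) and Slurp1 (1.58-fold) were the other genes called lower. Rapsn, which clusters the muscle receptor, was too dim to test, and no probe carried the symbols Tmem35a, Lypd6 or Psca.

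**Figure D4:**
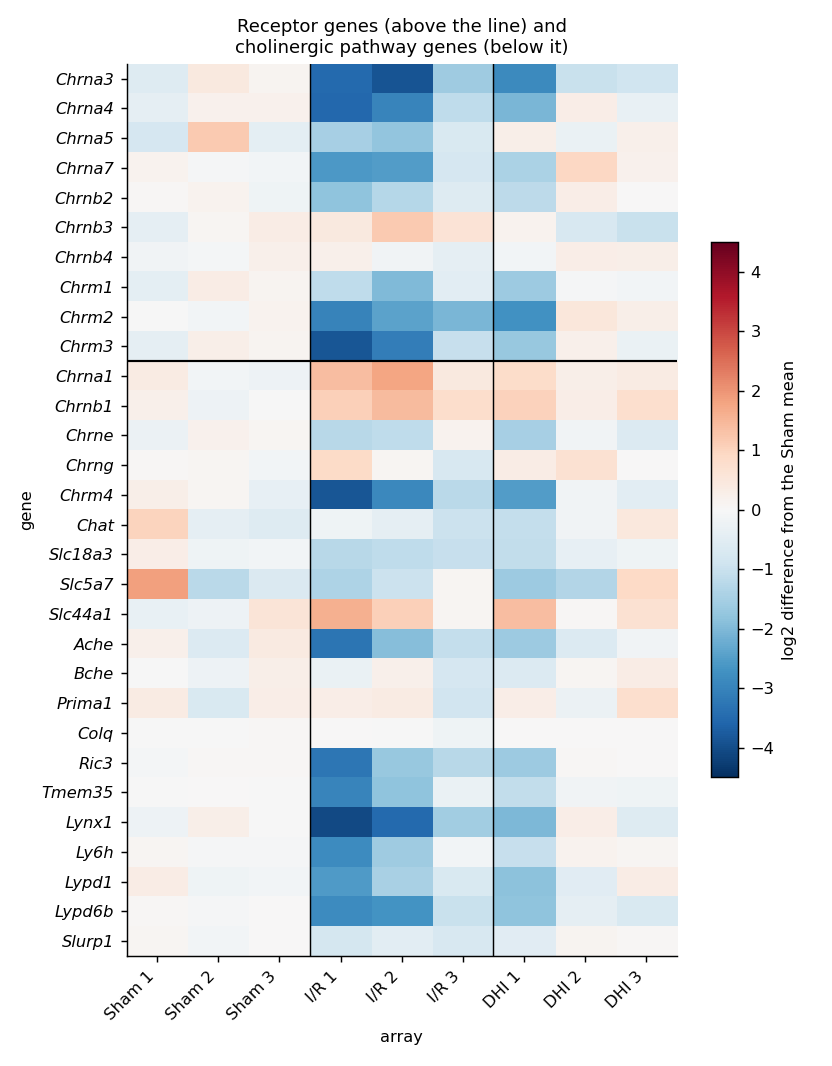
Log2 difference from the Sham mean (colour) for each gene (y axis) on each array (x axis), with the 10 receptor genes above the line and the tested genes of the 3 other cholinergic lists below it. I/R 1, I/R 2 and DHI 1 are the darkest blue columns for most of the receptor and chaperone genes, while Chrnb4 and Colq stay pale on all arrays and Chrna1 and Chrnb1 are red in I/R.

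Downstream of the muscarinic receptors, 15 of 19 effector genes fell after I/R and 3 rose (median log2 fold change -1.85). Of all probes tested, 22.3% were called lower and 20.8% higher. In the Gq branch, Plcb1, the phospholipase that M1 and M3 activate, fell 6.08-fold, Itpr1, the receptor for its product, 3.70-fold, and Prkcb 4.68-fold. Of the channels that muscarinic receptors govern, Kcnj3, an inward rectifier opened by M2, had a log2 fold change of -3.47 ± 0.88 (adjusted p = 0.0396, limma), and Kcnq3, an M-current channel, one of -2.46 ± 0.87 (adjusted p = 0.0593, limma). Plcb4, Prkca, Gna11, Gnai1, Gnao1, Kcnj6, Kcnj9 and Rgs4 were among the others called lower. The 3 that rose, by 2.11-fold to 2.68-fold, were Gnai2, Gnai3 and Plcb3, which many cell types use. In DHI versus I/R 13 of the 19 were called higher and Gnai3 lower, where 11.5% of all probes tested were called higher and 10.5% lower.

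**Figure D5:**
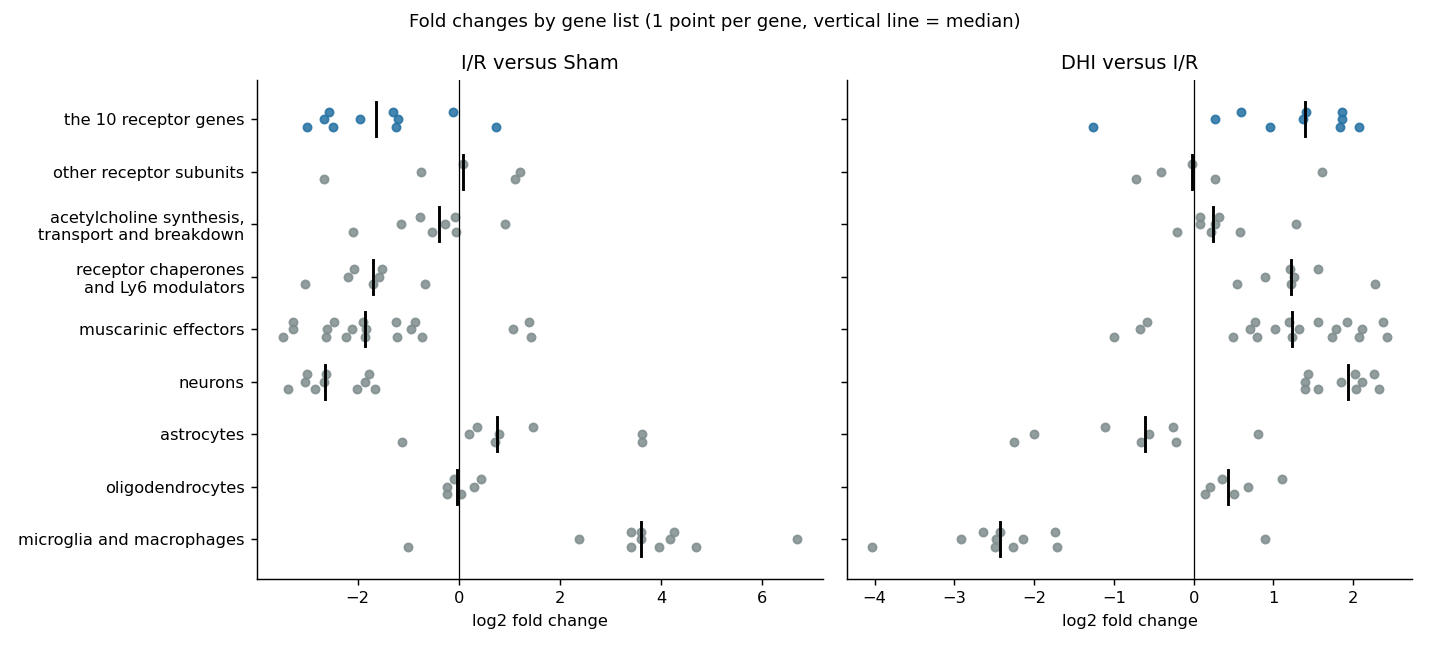
Log2 fold change (x axis) in I/R versus Sham and DHI versus I/R, with 1 point per gene and a vertical line at the median of each list. The 10 receptor genes (blue) have medians of -1.63 and 1.39, between those of the acetylcholine handling genes (-0.40 and 0.24) and the neuron markers (-2.64 and 1.93). The medians of the microglia and macrophage markers lie on the other side of 0 (3.61 and -2.42).

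Markers of neurons moved with the receptor genes. All 10 neuron markers (Rbfox3, Snap25, Syt1, Map2, Stmn2, Nefl, Nefm, Eno2, Syn1 and Gap43) were called lower in I/R versus Sham, 8 with the adjusted p. Of all probes tested, 22.3% were called lower, and 15.1% passed the adjusted p in that direction. The mean relative log2 signal of the 10 markers was 1.89 to 2.07 in Sham, -1.57 to 0.96 in I/R and 0.17 to 2.24 with DHI, with DHI 1 lowest. Most markers of microglia and macrophages moved in the opposite direction, with 10 of 11 called higher in I/R, where 20.8% of all probes tested were. The remaining marker, Cx3cr1, was not called and had a log2 fold change of -0.998. The mean of the 11 was -0.22 to -0.03 in Sham, 2.59 to 4.01 in I/R and 0.02 to 3.20 with DHI. The part of either cell type in the receptor results was not tested.

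Set against the neuron mean of the same array, the receptor genes differed among themselves. Chrm3 minus the neuron mean was -0.29 to 0.21 in Sham, -0.26 to -0.01 in I/R and -0.02 to 0.15 with DHI, so the gene moved by nearly the same amount as the neuron mean on every array. The mean of this difference changed by -0.18 for Chrm3, -0.07 for Chrna4, less than 0.01 for Chrm2 and -0.51 for Chrna3 between Sham and I/R, with overlapping groups in each. For Chrm2 the I/R arrays lay on both sides of Sham (-6.19 to -5.86), with I/R 1 and I/R 2 above it (-5.44 and -5.55) and I/R 3 below it (-7.00). Chrm2 thus did not follow the neuron mean as closely as Chrm3 or Chrna4 did. Chrna7 (0.52), Chrnb2 (1.25), Chrm1 (1.29), Chrnb4 (2.37) and Chrnb3 (3.23) fell less than the neuron mean or did not fall, without overlap between Sham and I/R, and Chrna5 (1.18) overlapped. The neuron mean itself went from 1.99 in Sham to -0.49 in I/R, so a gene that did not change rises in this difference. Chrna7 separated only narrowly (-5.82 in Sham 1, -5.81 in I/R 3), and Chrnb3 was near background. The share of all probes that separate in this way was not computed.

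By Pearson's r over the 9 arrays, which share the groups and slides, the 3 genes most like each member are named as a description, with r for the first. Chrm3 was most like Tmem59l (r = 0.998), Sult4a1 and Kcnj6, and Chrna4 most like Ccdc92 (r = 0.999), Mapre3 and Susd4. Chrna7 was most like Dlg4 (r = 0.995), the gene of the postsynaptic scaffold PSD-95, Apba2 and Dok6, and Chrnb2 most like Ildr2 (r = 0.998), LOC292199 and Ankrd45. Chrm2 was most like Gsk3b (r = 0.996), Thumpd1 and Zfp335, and Chrna3 most like Them4 (r = 0.996), Cdk5 and Exd2. For Chrm1 they were Phf20 (r = 0.969), RGD1564224 and Ocel1. Chrna5 had the loosest match of the 10, with Ctf2 (r = 0.889), Pcdhb4 and Adck1. Chrnb4 was matched by Spry4 (r = 0.989), LOC680955 and Olr789, and Chrnb3 by Cenpl (r = 0.980), Unc119 and Aff1.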

How the data were processed

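RNA of 9 rat hemispheres was measured on 9 one-colour arrays, 3 each for Sham, I/R and DHI, grouped by the sample labels. Nothing in the labels ties replicate numbers to shared animals or days. The authors deposited the scanner output of Agilent Feature Extraction 10.7.1.1 per array, with a linear intensity per spot that was background-subtracted and detrended within the array, and a series table of log2 values, which has the same distribution on every array and was used as an alternative (its normalization is not given in the sources used here). Columns of values left unused numbered 0.

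Control spots and 392 to 725 outlier spots per array were left out. The log2 processed signal minus the array's 75th percentile was averaged over the spots of a probe. A probe was tested where 1 group or more had it well above background on each of its 3 arrays (23747 of 30367), and 75.2% to 78.9% of probes were above background per array. The number of arrays limits the precision. One limma model (version 3.58.1, R 4.3.3) covered all 9 arrays, with 6 residual degrees of freedom, and the steps were tested on simulated data. A fold bound uses the mean of the bright group against, per array of the dim group, the higher of the probe's own signal and the lowest signal well above background. It makes no allowance for the spread between arrays. Single within-array differences were tested by exact permutation.

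The members, the gene lists and the tests were chosen with earlier results of these data known. All members and all genes of the 3 shorter cholinergic lists are named, and of the muscarinic effectors those called, apart from some that are not reported here. Each member is matched to the 3 genes with the highest r. The 250-base windows come from RefSeq (GRCr8). Alternatives were quantile normalization, no scaling, normexp (offset 50), the series table, no filter, probes above background on all 9 arrays, only the 2 groups compared, the methods' t-test, a block for the replicate number, the mean of all probes of a gene and leaving out each array. Slide as a block could not be fitted for DHI.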

Additional observations from a re-analysis of the deposited data

How the results depend on the processing

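Among the settings other than leaving out arrays, the number of members called in I/R versus Sham stayed within 1.5 times of 8. The adjusted p was passed by 4 in the main fit, 0 without scaling and 1 with the methods' t-test. It was passed by 6 with quantile normalization or the series table. With normexp, no filter or only probes above background on all 9 arrays 3 passed. Chrm2 did not pass with normexp or no filter, and Chrna3 was not among the probes above background on all 9 arrays. In DHI versus I/R 6 were called, against 1 without scaling, 2 with the methods' t-test and 3 with only the 2 groups compared. Of all probes, 5211 were called, against 7436, 469 and 2149 in those settings. In DHI versus Sham 0 were called, against 1 (Chrna3) with quantile normalization, no scaling, the series table, the replicate block or only the 2 groups compared. Leaving out each array in turn gave 4 to 9 members called and 0 to 8 with the adjusted p in I/R versus Sham, 1 to 8 and 0 to 7 in DHI versus I/R, and 0 to 1 called in DHI versus Sham (Chrna3 without I/R 3 or DHI 3, Chrnb3 without DHI 1).

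Directions turned mainly where differences were small. In DHI versus Sham, Chrna5 (0.06) was -0.0411 with quantile normalization, -0.20 without scaling and -0.0457 in the series table, and -0.31 to 0.65 over left-out arrays. Chrna7 (-0.10) was 0.0778 with normexp, 0.19 as the mean of both probes and -0.62 to 0.57 over left-out arrays. Chrnb2 (-0.28) was 0.0864 with normexp and -0.57 to 0.17 over left-out arrays, Chrnb3 (-0.53) was 0.34 with normexp, Chrnb4 (0.16) was -0.11 without scaling, and Chrm2 (-0.65) was -1.24 to 0.39 over left-out arrays. In I/R versus Sham, Chrnb4 was 0.0852 without scaling and -0.28 to 0.0311 over left-out arrays. Against I/R, DHI gave -0.19 for Chrnb4 without scaling and 0.24 for Chrnb3 with normexp, the only called member to turn. The causes were not tested. Without scaling the median over all probes was 0.10 for I/R versus Sham and -0.36 for DHI versus I/R, against -0.10 and 0.10.

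Arrays with the same replicate number deviated together in some pairs and not in others (r from -0.34 to 0.48), and not every array correlated best with its own number, so the numbers were not taken as pairs. With the replicate block 7 members were called in I/R versus Sham, 8 in DHI versus I/R and 1 in DHI versus Sham. Probes near background (Chrna3, Chrnb3 and the dimmer Chrm2 probe) have the least certain fold changes.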
